A study of Drosophila melanogaster with 18 samples.

Results

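The 9 genes described here encode enzymes that carry reducing power and fuel carbon between cytosol and mitochondria in working insect muscle, together with the kinase that buffers its ATP. They are Gpdh and Gpo-1 of the glycerophosphate shuttle, slgA and CG7145 of proline oxidation, Got1, Got2, Mdh1 and Mdh2 of the malate-aspartate shuttle, and Argk, which makes phosphoarginine. They were taken by symbol from these pathways, by a rule that uses no measured value but was written with earlier results of these data known, and all 9 were among the 15682 genes of the count files. CG7145 is listed there as P5CDh1 and was matched through its synonym in the RefSeq gene table.

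Flight muscle burns sugar at a high rate and must return the electrons of cytosolic NADH to its mitochondria, whose inner membrane NADH cannot cross. In flies the glycerophosphate shuttle does this by reducing dihydroxyacetone phosphate in the cytosol and oxidising glycerol-3-phosphate again at the inner membrane, and the malate-aspartate shuttle does it by exchanging malate, aspartate, glutamate and oxoglutarate. Proline is oxidised to glutamate and then to oxoglutarate, which feeds the tricarboxylic acid cycle, and phosphoarginine is the insect counterpart of phosphocreatine.

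Poly(A)-selected RNA was sequenced from 18 samples of adult male flies in 6 groups of 3, in a study of what the drug RU486 (mifepristone) does by itself when it is used to switch on GeneSwitch drivers. RU486-fed flies received 100 µM RU486 in food for 10 days and controls received its solvent, ethanol, in each of 3 experiments. These were thoraces of Act88F-GS-Gal4 flies, which carry the RU486-dependent GeneSwitch form of Gal4 under the promoter of the flight muscle actin gene Act88F, thoraces of w1118 flies, which have no driver, and elav-GS-Gal4 heads, in which the driver is neuronal. The Act88F-GS-Gal4 stock is 1 line, selected for minimal leaky expression and founded from yw embryos, so it differs from w1118 in more than the driver, and no transgene for the driver to induce is named in the labels of any group. The methods of the study speak of biological replicates in general, as flies or batches of tissue, while the labels do not say how the 3 samples of a group were separated, and the p-values measure the spread between these samples.

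The libraries held 34020840 to 96176923 reads on genes. No replicate pair held identical values, and within-group pairs differed by 13.1 to 472 times the chi-square expected from counting alone. The neuron and eye markers summed to 63976 to 83609 CPM (counts scaled to a common library size by trimmed mean of M-values within each experiment) in heads, against 394 to 2372 CPM in thoraces. Head controls 1 and 2 carried markers of testis (1431 and 456 CPM), male accessory gland (535 and 105 CPM) and gut (1477 and 675 CPM), where head control 3 held 188, 0.306 and 230.0 CPM. RU486 replicate 3 of the Act88F-GS-Gal4 thoraces stood apart from replicates 1 and 2, with more muscle marker RNA. Control 1 of the same stock stood apart from controls 2 and 3, with more eye marker RNA. Its ninaE was at 896 CPM, against 24.5 and 33.9 CPM in controls 2 and 3. The neuronal marker elav was lowest in it, at 53.9 CPM against 68.7 and 68.6 CPM.

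The genes lie on 4 chromosome arms and the X chromosome of the BDGP6.54 assembly, which postdates the build of the mapping, so the positions serve only to identify them. Gpdh lies on 2L at 5943643 to 5948968 and Gpo-1 on 2R at 15857752 to 15862755. The slgA gene spans 21374002 to 21385159 on the X chromosome, and P5CDh1 spans 21836665 to 21841356 on 3L. Got1 lies on 2R at 16138352 to 16141928, Got2 on 2L at 1984512 to 1987758, Mdh1 on 2L at 10393774 to 10396332, Mdh2 on 3R at 18226396 to 18228718 and Argk on 3L at 9048781 to 9066027. Of the exonic bases, 697 in Gpdh, 229 in slgA, 21 in P5CDh1 and 3 in Got2 are shared with another gene, and the other 5 genes share none. All 4 partner genes lie on the opposite strand. The library kit keeps strand, but the strand setting of the counting is not given in the sources used here, so reads of these shared bases could not be assigned with certainty.

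In Act88F-GS-Gal4 thoraces, RU486 was followed by lower mRNA of Gpdh and of both enzymes of proline oxidation, slgA and P5CDh1, while the mitochondrial aspartate aminotransferase Got2 was higher. The levels of slgA and P5CDh1 were 0.457 and 0.488 times those of controls, that of Gpdh 0.659 times and that of Got2 1.43 times. By edgeR's quasi-likelihood test with Benjamini-Hochberg adjustment over all 10600 genes tested, 3 of the 9 genes were lower, 1 was higher and 5 did not pass. Over all genes, 19.9% were lower and 12.6% were higher. The median log2 difference of the 9 genes was −0.38, against 0.010 for all genes. In whole thoraces, fewer cells of a type and less RNA per cell cannot be told apart.

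**Figure D1:**
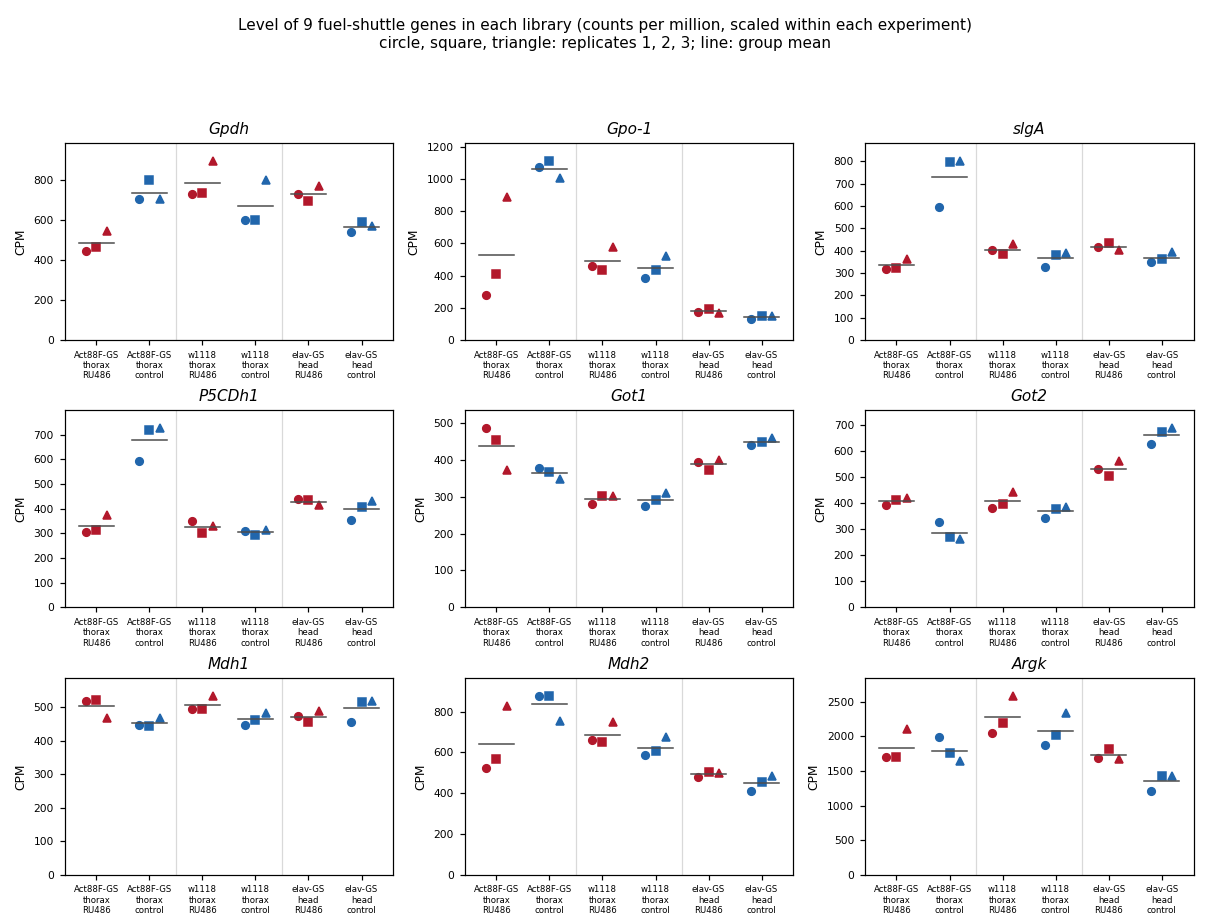
Level of each of the 9 genes in every library, in CPM scaled within each experiment, on linear axes that start at 0. Red marks are RU486 and blue marks control samples, with circle, square and triangle for replicates 1, 2 and 3 and a line for the group mean. In Act88F-GS-Gal4 thoraces the RU486 samples of Gpdh, Gpo-1, slgA and P5CDh1 lie below all controls and those of Got2 above them, with replicate 3 of Gpo-1 (891 CPM) close to the controls (1008 to 1113 CPM).

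In the glycerophosphate shuttle, Gpdh, the cytosolic NADH-dependent glycerol-3-phosphate dehydrogenase, was at 445, 464 and 542 CPM in RU486 thoraces, against 704, 799 and 701 CPM in control thoraces. All 3 RU486 samples lay below all 3 controls, and the fitted log2 difference was −0.60 (SE 0.11, adjusted p = 0.00838 by edgeR). Gpo-1, the FAD-linked enzyme of the mitochondrial inner membrane that takes the electrons over, had 281, 411 and 891 CPM in RU486 thoraces, against 1075, 1113 and 1008 CPM in control thoraces. The groups again did not overlap, but replicates 1 and 2 were far below the controls while replicate 3 was close to them. The log2 difference of −1.01 had an SE of 0.41 and did not pass edgeR's test (adjusted p = 0.104). Without RU486 replicate 3 it was −1.61 (adjusted p = 0.00194), and DESeq2 on all 6 samples gave an adjusted p of 0.0200. Over the fits that left out 1 sample the Gpo-1 difference ranged from −1.61 to −0.71.

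Of the proline enzymes, slgA, the proline dehydrogenase that starts the pathway, was at 318, 322 and 364 CPM in RU486 thoraces, against 597, 797 and 803 CPM in control thoraces. P5CDh1, the dehydrogenase that turns pyrroline-5-carboxylate into glutamate, was at 306, 314 and 374 CPM in RU486 thoraces, against 592, 718 and 725 CPM in control thoraces. Both genes were thus lower in every RU486 sample than in any control, and for both the RU486 samples lay closer together than the controls, of which replicate 1 was lowest. The log2 difference was −1.13 for slgA (SE 0.14, adjusted p = 0.00195 by edgeR) and −1.03 for P5CDh1 (SE 0.13, adjusted p = 0.00184). Gdh, a glutamate dehydrogenase that makes oxoglutarate from the glutamate, was measured as one of the other genes of these pathways. Gdh had 198, 207 and 279.6 CPM in RU486 thoraces, against 386, 484 and 442 CPM in control thoraces, and its log2 difference was −0.94 (adjusted p = 0.00624 by edgeR). Thus slgA, P5CDh1 and Gdh were all called lower. The aminotransferases did not fall, with Got2 (0.51) called higher and Got1 (0.26) and the alanine aminotransferase CG1640 (0.16) not passing. Gpdh, slgA and P5CDh1 stayed lower with an adjusted p under 0.05 under every alternative that was run.

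The malate-aspartate enzymes did not move together. Got2, the aspartate aminotransferase of the mitochondrial matrix, was at 393, 413 and 419.9 CPM in RU486 thoraces, against 327, 269 and 264 CPM in control thoraces. The groups did not overlap, and the log2 difference of 0.51 (SE 0.11) passed with an adjusted p of 0.0122 by edgeR. It no longer passed without RU486 replicate 2, control replicate 2 or control replicate 3 (adjusted p = 0.0510, 0.0578 and 0.0514). Got1, the cytosolic aminotransferase, had 485, 455 and 372 CPM in RU486 thoraces, against 378, 366 and 349 CPM in control thoraces. Only RU486 replicate 3 overlapped the controls, and the log2 difference of 0.26 (SE 0.12) did not pass (adjusted p = 0.128 by edgeR), whereas without that sample it was 0.38 (adjusted p = 0.0206). Over the fits that left out 1 sample the Got1 difference ranged from 0.18 to 0.38.

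The malate dehydrogenases gave no call. Mdh2, the mitochondrial enzyme, was at 525, 568 and 829 CPM in RU486 thoraces, against 875, 878 and 757 CPM in control thoraces. RU486 replicates 1 and 2 lay below every control and replicate 3 lay among them. The log2 difference was −0.38 (SE 0.19, adjusted p = 0.163 by edgeR), and without RU486 replicate 3 it was −0.60 (adjusted p = 0.0103). Over the fits that left out 1 sample the Mdh2 difference ranged from −0.60 to −0.26. Mdh1, the cytosolic enzyme, was at 519, 522 and 468 CPM in RU486 thoraces, against 447, 443 and 469 CPM in control thoraces, with a log2 difference of 0.15 (SE 0.083, adjusted p = 0.207). The 2 groups of Mdh1 values overlapped only at RU486 replicate 3 and control replicate 3.

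Argk, the arginine kinase that stores ATP as phosphoarginine, showed no separation at all. It was at 1704, 1705 and 2104 CPM in RU486 thoraces, against 1986, 1752 and 1639 CPM in control thoraces, with a log2 difference of 0.036 (SE 0.13, adjusted p = 0.860 by edgeR). The sign of this small value turned to −0.058 without RU486 replicate 3 and to −0.029 without control replicate 3. Of the 9 genes, 4 had all RU486 samples below all controls and 1 had all of them above, in an experiment where 27.4% of genes tested were separated downwards and 22.4% upwards.

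**Figure D2:**
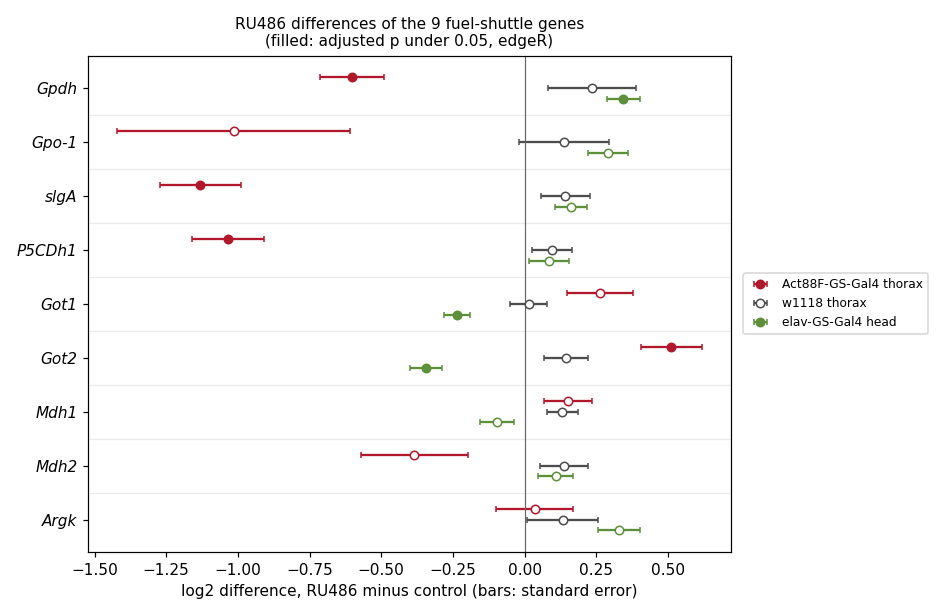
Fitted log2 difference, RU486 minus control, of the 9 genes in the 3 experiments, with bars of 1 standard error and filled marks for an adjusted p under 0.05 by edgeR. In Act88F-GS-Gal4 thoraces (red) Gpdh, slgA and P5CDh1 are called lower and Got2 higher, in w1118 thoraces (grey) every value is above 0 and none is called, and in elav-GS-Gal4 heads (green) Gpdh is called higher and Got1 and Got2 lower.

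The summed muscle markers of these libraries moved with the same samples, though not every marker did. The 12 flight and other muscle markers summed to 15764, 17586 and 29200 CPM in RU486 thoraces, against 32786, 37442 and 37110 CPM in control thoraces. RU486 replicate 3, in which Gpo-1 and Mdh2 were near the controls, thus also held more muscle marker RNA than replicates 1 and 2. Of the 12 markers 5 were called lower (Act88F, TpnC4, bt, sls and up) and 1 higher (Act87E), and none was at 0. The myosin heavy chain gene Mhc had a log2 difference of −0.058 (adjusted p = 0.844 by edgeR), and the flight muscle actin Act88F one of −2.13 (adjusted p = 0.0264). Gut markers summed to 17718 to 22265 CPM in RU486 thoraces and 14585 to 16358 CPM in control thoraces, with 3 of 9 tested called higher, and fat body markers to 978 to 1746 CPM in RU486 thoraces and 348 to 860.0 CPM in control thoraces, with 1 of 5 tested called higher. Neuron and eye markers summed to 761, 737 and 939 CPM in RU486 thoraces, against 2372, 744 and 832 CPM in control thoraces, with none of 10 called. Control 1, the high one, was also the control with the lowest slgA and P5CDh1 and the highest Got2. Without it, slgA was at −1.26 (adjusted p = 0.000811 by edgeR), P5CDh1 at −1.13 (adjusted p = 0.00183) and Got2 at 0.62 (adjusted p = 0.00217), and 3 of the 9 genes were still called lower and 1 higher. The part of muscle, gut, fat body, neuron and eye markers in the differences of the 9 genes was not tested.

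**Figure D3:**
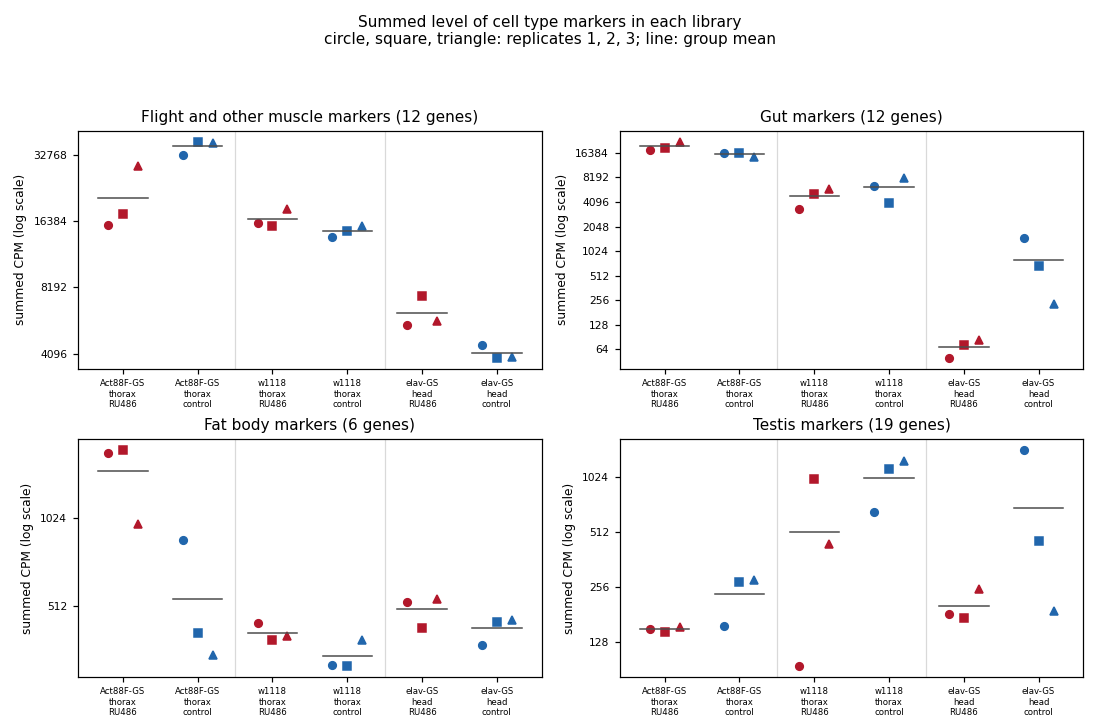
Summed CPM of the markers of 4 cell types in each library, on log axes, with red marks for RU486 and blue for control samples. Muscle markers are lower in RU486 than in control thoraces of the Act88F-GS-Gal4 stock, least so in replicate 3 (29200 CPM), and testis and gut markers are raised in head controls 1 and 2.

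Among 22 other genes of these pathways, 15 could be tested in Act88F-GS-Gal4 thoraces, of which 3 were lower, 3 higher and 9 did not pass, where 19.9% of all genes were lower and 12.6% higher. Besides Gdh, the lower genes were Men-b, a malic enzyme, and CG5144, an arginine kinase-like gene whose position on 3L adjoins that of Argk. Men-b was at 377, 365 and 438 CPM in RU486 thoraces, against 480.4, 633 and 579.9 CPM in control thoraces (log2 difference −0.52, adjusted p = 0.0255 by edgeR). CG5144 was at a low level, with 4.99, 4.74 and 2.54 CPM in RU486 thoraces, against 12.5, 14.1 and 13.8 CPM in control thoraces (log2 difference −1.70, adjusted p = 0.00356). Neither gene's groups overlapped, though Men-b lost its call without RU486 replicate 1 or 2 or control replicate 2 or 3 (adjusted p = 0.0707 to 0.0987).

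The higher genes were 2 mitochondrial carriers and lactate dehydrogenase. The carrier gene aralar1, whose product exchanges aspartate for glutamate in the malate-aspartate shuttle, was at 206, 240.0 and 264 CPM in RU486 thoraces, against 172, 182 and 178 CPM in control thoraces (log2 difference 0.42, adjusted p = 0.0242 by edgeR). CG1907, a predicted oxoglutarate and malate carrier, was at 89.0, 89.7 and 89.2 CPM in RU486 thoraces, against 73.6, 72.5 and 70.3 CPM in control thoraces (log2 difference 0.31, adjusted p = 0.00730). ImpL3, the lactate dehydrogenase that can regenerate cytosolic NAD without a shuttle, was at 50.0, 128.4 and 53.2 CPM in RU486 thoraces, against 31.3, 33.4 and 33.0 CPM in control thoraces. All RU486 samples exceeded all controls for each of the 3 genes, but ImpL3 was uneven, with RU486 replicate 2 far above the other RU486 samples. Its log2 difference was 1.25 (adjusted p = 0.0457 by edgeR) and 0.66 without that sample. The calls of aralar1 and ImpL3 were lost without control replicate 1, 2 or 3, and that of aralar1 also without RU486 replicate 2 (adjusted p = 0.0507 to 0.0831 for aralar1 and 0.109 to 0.123 for ImpL3). The proline-making enzymes CG7470 and P5cr did not pass (log2 differences 0.056 and 0.035), nor did the alanine aminotransferase CG1640 (0.16) or the malic enzyme Men (0.13). CG5840, a pyrroline-5-carboxylate reductase that also makes proline, was at 0.34 and did not pass either (adjusted p = 0.0947 by edgeR). Its log2 difference was 0.24 in w1118 thoraces and −0.34 in heads (adjusted p = 0.539 and 0.148 by edgeR). Of its 1452 exonic bases, 1265 are shared with a gene on the opposite strand.

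**Figure D4:**
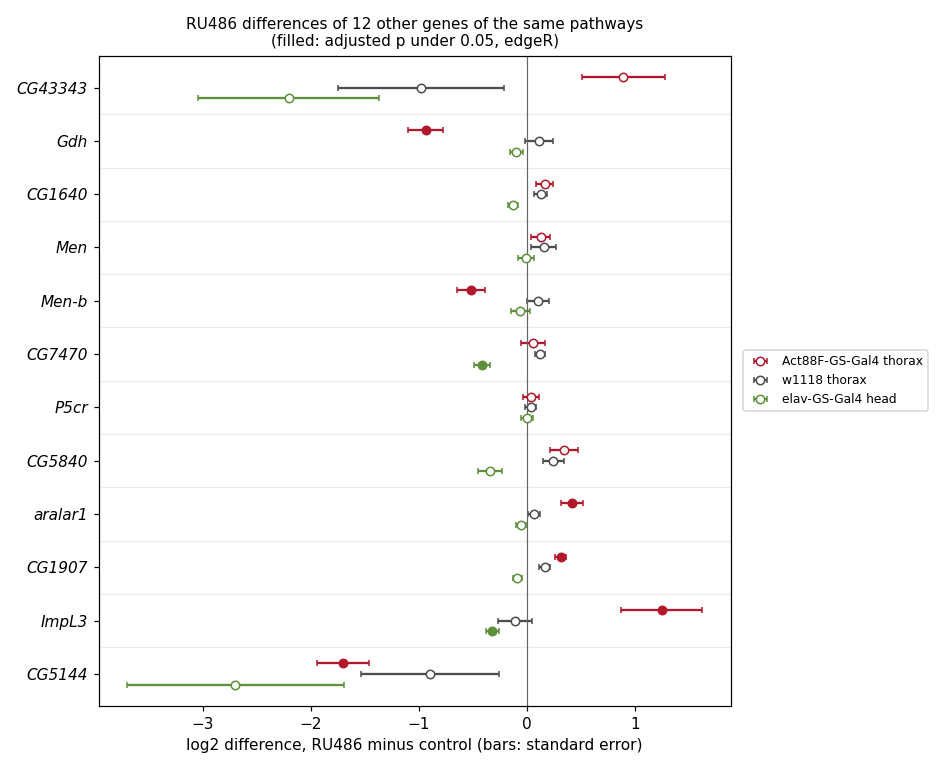
Fitted log2 difference, RU486 minus control, of 12 other genes of the same pathways in the 3 experiments, with bars of 1 standard error and filled marks for an adjusted p under 0.05 by edgeR. Gdh, Men-b and CG5144 are called lower and aralar1, CG1907 and ImpL3 higher in Act88F-GS-Gal4 thoraces (red), and CG7470 and ImpL3 are called lower in elav-GS-Gal4 heads (green).

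In w1118 thoraces, which carry no GeneSwitch, none of the 9 genes was called. All 9 had a small positive log2 difference, between 0.014 for Got1 and 0.24 for Gpdh, with a median of 0.14 against −0.019 for all genes. No gene passed edgeR's test among 12980 (0%), with a lowest adjusted p of 0.539, and 9.2% of genes but none of the 9 had an unadjusted p under 0.05. DESeq2 called 95 genes lower and 195 higher, and neither it nor limma called any of the 9. Over all genes the spread in this experiment was wide, with a common biological coefficient of variation of 40.7%, against 18.3% in Act88F-GS-Gal4 thoraces. The 9 genes did not share this width. Their standard errors ran from 0.055 (Mdh1) to 0.16 (Gpo-1) in w1118, against 0.083 (Mdh1) to 0.41 (Gpo-1) in Act88F-GS-Gal4. Only that of Gpdh was larger in w1118 (0.15 against 0.11).

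The genes that fell in the driver stock show this at the level of samples. Gpdh was at 728, 732 and 894 CPM in w1118 RU486 thoraces, against 599, 599 and 800.5 CPM in w1118 control thoraces. The slgA gene had 401, 384 and 429.9 CPM in RU486 thoraces, against 328, 383 and 390.3 CPM in control thoraces, and P5CDh1 had 351, 299.7 and 329 CPM in RU486 thoraces, against 309, 293 and 314 CPM in control thoraces. In each of the 3 genes the 2 groups overlapped. Same-numbered w1118 samples deviated together (r = 0.303 to 0.566), though the labels state no pairing. RU486 2 went more with control 3 (r = 0.448) than with control 2 (0.303), so the pairs are only inferred from these data. Within the 3 same-numbered pairs 8 of the 9 genes, all but Got1, were higher with RU486 every time. The same held for 21.5% of all genes tested. With the pairs as a block in edgeR's test none of the 9 was called. Mdh1 alone of the 9 had every RU486 sample above every control (495, 494 and 534 CPM with RU486, against 446, 461 and 483 CPM in control thoraces), where 9.66% of all genes did, and its log2 difference was 0.13 (adjusted p = 0.539 by edgeR). Muscle markers summed to 15471 to 18497 CPM in RU486 thoraces and 13881 to 15528 CPM in control thoraces. Accessory gland markers summed to 4.05, 287 and 408 CPM in RU486 thoraces, against 934, 738 and 966 CPM in control thoraces, without overlap, and testis markers to 94.1 to 987 CPM in RU486 thoraces and 653 to 1246 CPM in control thoraces. None of these markers was called, and their part in the values of the 9 genes was not tested.

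The responses of the 2 thorax stocks were then compared directly, as the RU486 difference in Act88F-GS-Gal4 minus that in w1118. The response was lower in Act88F-GS-Gal4 for slgA by a log2 difference of −1.29 (SE 0.18, adjusted p = 0.00121 by edgeR), for P5CDh1 by −1.15 (SE 0.16, adjusted p = 0.000995) and for Gpdh by −0.85 (SE 0.20, adjusted p = 0.0186). Thus 3 of the 9 genes had a lower response and 0 a higher one, where 11.9% of the 13019 genes tested had a lower and 4.29% a higher one. Gpo-1 (−1.16, SE 0.49) and Mdh2 (−0.53, SE 0.22) did not pass (adjusted p = 0.145 for both). Without Act88F-GS-Gal4 RU486 replicate 3 they were −1.76 (adjusted p = 0.00286) and −0.75 (adjusted p = 0.00861). Over the fits that left out 1 sample they ranged from −1.76 to −0.86 for Gpo-1 and from −0.75 to −0.41 for Mdh2.

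Got2, called higher within Act88F-GS-Gal4, had a response difference of 0.36 (SE 0.13) that did not pass (adjusted p = 0.105 by edgeR), although DESeq2 gave 0.40 with an adjusted p of 0.0231. Got1 (0.24), Mdh1 (0.0084) and Argk (−0.11) did not pass either. Gpdh lost its call without Act88F-GS-Gal4 RU486 replicate 2 or control replicate 2 (adjusted p = 0.0514 and 0.0522). Of the other pathway genes, Gdh (−1.06, adjusted p = 0.00939) and Men-b (−0.64, adjusted p = 0.0430) had lower responses in Act88F-GS-Gal4, the second of which was lost without most single samples (adjusted p = 0.0751 to 0.107). The difference for aralar1 was 0.34 and that for ImpL3 1.34, and neither passed (adjusted p = 0.0919 and 0.0711).

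In elav-GS-Gal4 heads the small differences had another pattern, with Gpdh higher and both aspartate aminotransferases lower. Gpdh was at 727, 694 and 769 CPM in RU486 heads, against 540.4, 589 and 567 CPM in control heads. Got2 had 531, 505 and 560.4 CPM in RU486 heads, against 628, 675 and 688 CPM in control heads. Got1 had 393, 374 and 398 CPM in RU486 heads, against 440.3, 449 and 458 CPM in control heads. For each of these genes no RU486 head overlapped a control head. The log2 differences were 0.34 for Gpdh (SE 0.057, adjusted p = 0.0286 by edgeR), −0.34 for Got2 (SE 0.056, adjusted p = 0.0278) and −0.23 for Got1 (SE 0.045, adjusted p = 0.0408). Thus 2 of the 9 genes were lower and 1 was higher, where 0.779% of the 10653 genes tested were lower and 5% higher.

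These 3 head calls rest on small margins. Without head controls 1 and 2, the samples with reproductive tract and gut markers, the log2 differences were as large, at 0.36 for Gpdh, −0.38 for Got2 and −0.25 for Got1. That fit has 1 control head against 3 RU486 heads, the lone control being assumed to vary like the others, and did not call them (adjusted p = 0.227, 0.194 and 0.306). Left out singly, head control 1, head control 2 or any RU486 head also ended the 3 calls (adjusted p = 0.0542 to 0.286). Gpo-1 had 175, 192 and 166 CPM in RU486 heads, against 133, 147 and 149 CPM in control heads, and Argk had 1682, 1822 and 1670.2 CPM in RU486 heads, against 1209, 1419 and 1423 CPM in control heads. Neither gene's groups overlapped, but the log2 differences of 0.29 and 0.33 did not pass (adjusted p = 0.0787 and 0.0660 by edgeR), while DESeq2 gave adjusted p values of 0.00340 and 0.000154. In all, 2 of the 9 genes had every RU486 head below every control head and 4 had every one above, where 8.86% of all genes were separated downwards and 21% upwards.

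Muscle is a minor part of a head, but its summed markers were not level between the groups. The muscle markers summed to 5504, 7514 and 5776 CPM in RU486 heads, against 4476, 3919 and 3954 CPM in control heads, and bt alone of the 12 was called higher. Neuron and eye markers summed to 66047 to 72700 CPM in RU486 heads and 63976 to 83609 CPM in control heads, with none of 10 called. Gut markers summed to 50.5, 72.6 and 84.2 CPM in RU486 heads, against 1477, 675 and 230.0 CPM in control heads, and both that could be tested were called lower, Amy-d (log2 difference −1.82) and Amy-p (−2.27). Fat body markers summed to 429.8 to 541 CPM in RU486 heads and 377 to 459 CPM in control heads, and Lsp1beta was called higher (0.96). The part of these markers in the values of the 9 genes was not tested. Among the other pathway genes, CG7470, which begins proline synthesis, was lower in RU486 heads (log2 difference −0.42, adjusted p = 0.0307 by edgeR), as was ImpL3 (−0.32, adjusted p = 0.0348). With control 3 as the lone control head, CG7470 was at −0.41 and ImpL3 at −0.37, and neither was called (adjusted p = 0.220 and 0.170). None of the 15 pathway genes tested in heads was higher.

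Set against elav-GS-Gal4 heads, the response in Act88F-GS-Gal4 thoraces was lower for 4 of the 9 genes and higher for 3, where 10.6% and 17.5% of 13235 genes were, with a median of 0.25 over all genes. The lower ones were Gpdh (−0.82, adjusted p = 0.00619 by edgeR), Gpo-1 (−1.18, adjusted p = 0.0478), slgA (−1.16, adjusted p = 0.000235) and P5CDh1 (−0.99, adjusted p = 0.000785). The higher ones were Got2 (0.99, adjusted p = 0.000332), Got1 (0.63, adjusted p = 0.00545) and Mdh1 (0.38, adjusted p = 0.0389). The Mdh1 value is close to the median of all genes. Tissue, stock and driver differ together between these experiments and cannot be told apart, and the 2 comparisons of responses share the Act88F-GS-Gal4 samples. The Gpo-1 and Mdh1 calls were lost when most single samples were left out (adjusted p = 0.0569 to 0.108 for Gpo-1 and 0.0552 to 0.451 for Mdh1), and the Got1 call without head control 2 or any RU486 head (adjusted p = 0.0612 to 0.0888). Without Act88F-GS-Gal4 RU486 replicate 3, Gpo-1 was at −1.77 (adjusted p = 0.000251). With control 3 as the lone control head it was at −1.15 (adjusted p = 0.209).

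Partner enzymes were compared within each library, since a ratio of 2 genes does not depend on library scaling. Per kilobase of exon, the ratio of Mdh1 to Mdh2 was 1.02, 0.951 and 0.585 in Act88F-GS-Gal4 RU486 thoraces, against 0.529, 0.522 and 0.642 in control thoraces. The ratio of Gpdh to Gpo-1 was 1.47, 1.05 and 0.565 in RU486 thoraces, against 0.609, 0.667 and 0.647 in control thoraces. In both ratios RU486 replicates 1 and 2 stood well above the controls and replicate 3 lay at or below their level, and the mean log2 differences were 0.56 and 0.58 (exact 2-sided permutation p = 0.2 and 0.4, n = 3 per group). The ratio of slgA to P5CDh1 was 0.729, 0.721 and 0.684 in RU486 thoraces, against 0.709, 0.780 and 0.778 in control thoraces, a log2 difference of −0.086 (exact permutation p = 0.3). The groups of this ratio overlapped. That of Got1 to Got2 was 1.21, 1.08 and 0.867 in RU486 thoraces, against 1.13, 1.33 and 1.30 in control thoraces. Its groups overlapped as well, with a log2 difference of −0.26 (exact permutation p = 0.2).

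With 3 samples against 3 the exact permutation test cannot go below p = 0.1, so that no ratio could pass 0.05, and over the 12 ratios tested the lowest adjusted p was 0.3. That smallest p of 0.1 was reached in heads by Got1 to Got2 and Mdh1 to Mdh2, and in w1118 thoraces by Gpdh to Gpo-1 and Got1 to Got2. The ratio of Got1 to Got2 was 0.725, 0.725 and 0.696 in RU486 heads, against 0.687, 0.651 and 0.652 in control heads. In heads Gpdh exceeded Gpo-1 by a ratio of 3.36 to 4.30 in RU486 and 3.53 to 3.79 in control samples. No head came near the ratios of the thoraces.

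**Figure D5:**
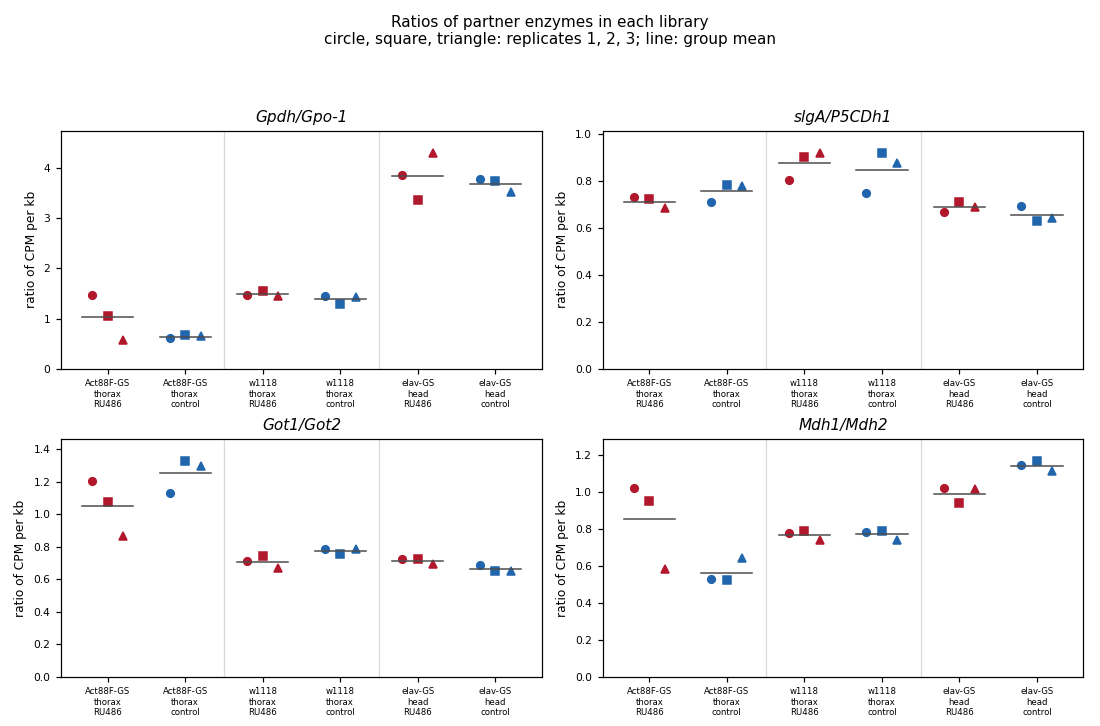
Ratio of 4 pairs of partner enzymes in each library, in CPM per kilobase of exon, on linear axes that start at 0, with red marks for RU486 and blue for control samples. Gpdh to Gpo-1 is 3.36 to 4.30 in heads and at most 1.56 in thoraces, and the Mdh1 to Mdh2 ratio of Act88F-GS-Gal4 RU486 replicate 3 (0.585) lies with the controls.

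Levels of the 9 genes were also compared between control elav-GS-Gal4 heads and control Act88F-GS-Gal4 thoraces, where tissue, stock and any sequencing run cannot be told apart. Control heads had less of 6 genes than control Act88F-GS-Gal4 thoraces and more of 2, where 24.2% of all genes were lower and 49.1% higher in heads, with a median of 0.36. Gpo-1 differed most, at 144 ± 19.4 CPM in control heads and 1112 ± 53.7 CPM in control thoraces (SD, n = 3 each, scaled over all 18 libraries), a log2 difference of −2.95 (SE 0.31, adjusted p = 1.57e-06 by edgeR). Relative to the median of all genes its deficit in heads was larger still. The other lower genes were slgA (−1.04), Mdh2 (−0.94), P5CDh1 (−0.82), Argk (−0.46) and Gpdh (−0.43). Control w1118 thoraces were not tested against heads. On the same scale the head means of P5CDh1 (401 against 290.3 CPM) and slgA (371 against 349 CPM, overlapping) were not below those of w1118 controls. Those of Gpo-1, Mdh2, Argk and Gpdh were below them, Gpdh with overlap. Got2 was higher in heads than in control Act88F-GS-Gal4 thoraces, at 669 ± 80.1 CPM against 299 ± 38.9 CPM (log2 difference 1.16, SE 0.10, adjusted p = 2.11e-07). Got1 was higher by 0.25, less than the median of all genes, and Mdh1 (0.084) did not pass. The Got1 call was lost without any 1 head control, control thorax 2 or control thorax 3 (adjusted p = 0.0674 to 0.619), and with control 3 as the lone control head those of Gpdh (−0.44) and Argk (−0.40) were lost as well (adjusted p = 0.0693 and 0.0762).

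The 2 thorax stocks also differed without RU486. Control Act88F-GS-Gal4 thoraces had more of 7 genes than control w1118 thoraces and less of none, where 31% of all genes were higher and 34.6% lower, with a median of −0.014. Gpo-1 was at 1112 ± 53.7 CPM in Act88F-GS-Gal4 and 425 ± 65.4 CPM in w1118 (log2 difference 1.49, adjusted p = 0.00429 by edgeR). P5CDh1 was at 708 ± 73.8 CPM in Act88F-GS-Gal4 and 290.3 ± 10.1 CPM in w1118 (1.39, adjusted p = 1.33e-05). The third gene, slgA, was at 764 ± 118 CPM in Act88F-GS-Gal4 and 349 ± 32.3 CPM in w1118 (1.24, adjusted p = 5.43e-05). No Act88F-GS-Gal4 control overlapped a w1118 control for any of the 3 genes, and 34.4% of all genes were likewise separated upwards. Mdh2 (0.66), Got1 (0.56), Gpdh (0.38) and Mdh1 (0.21) were higher by less. Of these, Gpdh lost its call without any 1 control other than w1118 control 3 (adjusted p = 0.0548 to 0.136) and Mdh1 without Act88F-GS-Gal4 control 3 or w1118 control 1 or 2 (adjusted p = 0.0604 to 0.0927). Got2 (−0.12) and Argk (0.027) did not pass. Gdh (1.12) and Men-b (1.52) were higher in the Act88F-GS-Gal4 stock as well.

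The summed muscle markers moved with these stock differences, though not every marker did. They summed to 32786 to 37442 CPM in control Act88F-GS-Gal4 thoraces and 13881 to 15528 CPM in control w1118 thoraces. Act88F itself stood at 2313 to 2640.2 CPM in Act88F-GS-Gal4 and 148 to 189.6 CPM in w1118. Mlc2 stood at 9995 to 11594 CPM in Act88F-GS-Gal4 and 1725 to 1885 CPM in w1118. Mhc overlapped, at 3772 to 4542 CPM in Act88F-GS-Gal4 and 3312 to 3958 CPM in w1118. The marker values of the 2 stocks are scaled within each experiment. Gut markers summed to 14585 to 16358 CPM in Act88F-GS-Gal4 and 3923 to 8105 CPM in w1118. Testis markers summed to 155 to 279 CPM in Act88F-GS-Gal4 and 653 to 1246 CPM in w1118. The part of these markers in the stock differences was not tested. Stock and any difference in dissection or sequencing run cannot be told apart. With total counts in place of trimmed-mean scaling, 3 of the 9 genes were higher and 2 lower in Act88F-GS-Gal4.

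Placed on 1 scale over all 18 libraries, the 6 groups had the same order for Gpo-1 and Mdh2, and another order for each of the other 7 genes. Gpo-1 averaged 579 ± 345 CPM in Act88F-GS-Gal4 RU486 thoraces, 467 ± 70.4 CPM in w1118 RU486 thoraces and 170.0 ± 12.1 CPM in RU486 heads (SD, n = 3), below the 1112 CPM of Act88F-GS-Gal4 controls. Without replicate 3 the Act88F-GS-Gal4 RU486 mean of Gpo-1 was 384 CPM, lower than that of either w1118 group. Apart from the overlap of the Act88F-GS-Gal4 RU486 group with both w1118 groups and of these with each other, neighbouring groups of Gpo-1 did not overlap. For slgA, RU486 brought the Act88F-GS-Gal4 thoraces to 368 ± 23.4 CPM, overlapping both w1118 groups (385 ± 21.9 CPM with RU486 and 349 ± 32.3 CPM in controls). P5CDh1 of RU486 Act88F-GS-Gal4 thoraces, at 365 ± 36.0 CPM, remained above the 310.3 ± 24.3 CPM of RU486 w1118 thoraces without overlap. Got2 was highest in the 2 head groups, and control Act88F-GS-Gal4 thoraces (299 ± 38.9 CPM) were the lowest, overlapping w1118 controls. Group means of Mdh1 lay between 555 ± 39.8 CPM in RU486 Act88F-GS-Gal4 thoraces and 440.4 ± 18.1 CPM in control w1118 thoraces, and every neighbouring pair in its order overlapped. Argk lay between 2165 ± 262 CPM in RU486 w1118 thoraces and 1365 ± 222 CPM in control heads, and its 4 thorax groups overlapped from one to the next.

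Per kilobase of exon, Mdh2 and Argk were the most abundant of the 9 mRNAs in thoraces and slgA was among the least. In Act88F-GS-Gal4 thoraces Argk stood at 524 ± 65.8 CPM per kilobase with RU486 and 512 ± 50.6 in controls, and Mdh2 at 480.1 ± 123 with RU486 and 627 ± 51.8 in controls (SD, n = 3). Gpo-1 ranked 6 of 9 with RU486, at 180.1 ± 109.6 CPM per kilobase, and 3 of 9 in controls, at 364 ± 18.2. Without RU486 replicate 3, Gpo-1 averaged 118 CPM per kilobase and ranked 7 of 9, and Mdh2 averaged 409.6 CPM per kilobase. In heads Gpo-1 was the least abundant, at 60.7 ± 4.55 CPM per kilobase with RU486 and 48.8 ± 3.08 in controls, and Argk the most abundant with RU486, at 492 ± 24.1. Among control heads Argk (385 ± 34.9), Mdh1 (385 ± 28.2) and Got2 (383 ± 18.1) did not differ beyond their spread.

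Several paralogues of these enzymes were nearly silent in Act88F-GS-Gal4 thoraces and RU486 heads. For 10 of them, grouped after their values were seen (CG3215, CG2137, CG7311, CG6661, CG4434, CG18418, CG7514, CG10748, CG10749 and CG4546), the summed level was 1.09 to 2.51 CPM in Act88F-GS-Gal4 thoraces and 2.54 to 4.25 CPM in RU486 heads. It was 414, 103 and 1.11 CPM in control heads, and in w1118 thoraces it was 10.5, 285 and 107 CPM with RU486 and 187, 331 and 361 CPM in controls. The high libraries were those with high testis markers, head controls 1 and 2 among them. Testis markers in w1118 thoraces were 94.1, 987 and 439 CPM with RU486 and 653, 1126 and 1246 CPM in controls. CG43343, a glycerophosphate dehydrogenase paralogue, followed the same libraries in heads (26.1, 25.6 and 25.1 CPM with RU486, against 245, 69.7 and 28.3 CPM in controls). None of the 22 pathway genes was called in w1118 thoraces.

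Across the 18 libraries, the pattern of Gpo-1 was most like that of CG5261 (Pearson r = 0.991 of log2 CPM) and blw (0.988), the gene of an ATP synthase subunit. Mdh2 was also most like blw (0.975), followed by PyK, pyruvate kinase (0.973). The gene most like slgA was Amph (0.981) and that most like P5CDh1 was Gadd34 (0.976). Got2 was most like Dh31-R1 (0.966), Got1 like Reg-2 (0.950), Argk like RIC-3 (0.938), Mdh1 like yellow-f2 (0.875) and Gpdh like plx (0.828). These values describe 6 groups of 3 libraries that share tissue, stock and depth, were searched among 7623 genes, and are given without a test.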

How the data were processed

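RNA-seq was carried out on thoraces or heads of male flies in 6 groups of 3 (18 samples). The authors prepared stranded libraries, mapped the reads, used HTSeq for counting and deposited raw counts for 15682 genes. The methods name StrongARM and a BDGP5 genome, while the submitters' processing notes list dm3, BWA, STAR and HTSeq, and which aligner made the files is not settled by these sources. Entries that name no gene held 14.5% to 29.9% of the listed reads and were left out. All head libraries list 0 unaligned reads, while the thorax libraries list 774393 to 2646573. This difference in the files cannot be told apart from tissue in any comparison of heads with thoraces. Reads on genes numbered 34020840 to 96176923 per library.

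Counts were tested with edgeR 4.0.16 (TMM scaling, filterByExpr, robust quasi-likelihood test, adjusted p under 0.05, Benjamini-Hochberg over all genes tested) in R 4.3.3, within each experiment of 6 samples, over the 12 thorax samples for the comparison of stocks, and over all 18 for heads against thoraces. Per-sample CPM use the scaling of their own experiment unless all 18 libraries are named. Partner ratios were tested by exact permutation (scipy 1.17.1, prior count 1). The tests were checked on simulated data. Alternatives were total counts, upper quartile and DESeq2 size factors, no filter, a filter at a mean of 10 counts, the tests of DESeq2 1.42.0 and limma 3.58.1 (voom), all 18 samples in 1 fit, a replicate block and leaving out each sample. Leaving out head controls 1 and 2 together was added after the data were seen.

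Same-numbered samples deviated together in w1118 (r = 0.303 to 0.566 over 3 pairs), where 6 differently numbered pairs gave −0.60 to 0.45. The highest of these, RU486 2 with control 3, exceeded same-numbered pair 2 (0.303). The labels state no pairing, so a pairing in w1118 is only inferred from these data. Same-numbered samples did not deviate together in Act88F-GS-Gal4 (r = −0.15 to 0.052) or elav-GS-Gal4 (−0.065 to 0.073). The w1118 calls were the same with the block.

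The text names the 9 genes in every group and, of 22 other pathway genes, those past the test or at 10 CPM or more in some group, plus for each of the 9 the genes of highest correlation among those with a mean log2 CPM of at least 3. The genes, pathway lists and marker lists were chosen with earlier results of these data known. Exon lengths and positions come from Ensembl's BDGP6.54 annotation.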

Additional observations from a re-analysis of the deposited data

Results flagged for a closer look

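The RU486 response differed between Act88F-GS-Gal4 and w1118 thoraces, by edgeR's test of the difference itself, for Gpdh (log2 −0.85), slgA (−1.29), P5CDh1 (−1.15), Gdh (−1.06) and Men-b (−0.64). The responses of Gpdh, slgA, P5CDh1 and Gdh in Act88F-GS-Gal4 were −0.60, −1.13, −1.03 and −0.94, against 0.24, 0.14, 0.096 and 0.11 in w1118.

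Between Act88F-GS-Gal4 thoraces and elav-GS-Gal4 heads the same test gave a difference for Gpdh (−0.82), Gpo-1 (−1.18), slgA (−1.16), P5CDh1 (−0.99), Got1 (0.63), Got2 (0.99) and Mdh1 (0.38). Got2 was called higher in thoraces (0.51) and lower in heads (−0.34), and Gpdh lower in thoraces (−0.60) and higher in heads (0.34). With control 3 as the lone control head, the head differences of Gpdh, Got2 and Got1 were 0.36, −0.38 and −0.25 and were not called, in a fit of 1 control against 3 RU486 heads. Both sets of differences share the Act88F-GS-Gal4 samples and are not independent of each other.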

How the results depend on the processing

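Under every alternative, and with any 1 sample left out, Gpdh, slgA and P5CDh1 were called lower in Act88F-GS-Gal4 thoraces. The count of lower genes there was 3 to 5 over the fits that left out 1 sample (5 without RU486 replicate 3), and that of higher genes was 0 to 2, with 3 on total counts and 2 with all 18 samples in 1 fit. Argk ranged from −0.058 to 0.11 (−0.029 without control replicate 3). In w1118 both counts stayed at 0, and Got1 was −0.0063 on total counts and ranged from −0.027 to 0.098 with 1 sample left out.

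With the replicate block, and likewise with no filter on low counts and without head controls 1 and 2 together (1 control left), the heads had 0 lower and 0 higher genes in place of 2 and 1. DESeq2 gave 3 higher and all 18 samples in 1 fit gave 0, and leaving out 1 sample gave 0 to 2 lower and 0 to 4 higher. P5CDh1 turned to −0.012 in heads without head controls 1 and 2. The block changed no other count of the 9 genes by more than 1.5 times. In Act88F-GS-Gal4 thoraces it left 3 lower and 1 higher, and of single genes it ended the calls of Men-b and ImpL3 there and of Mdh1 between thoraces and heads.

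For the response in Act88F-GS-Gal4 less that in w1118, 1 gene had a higher one on total counts and with DESeq2, and leaving out 1 sample gave 2 to 5 lower and 0 to 1 higher. Argk turned to 0.090 on total counts, and Mdh1 ranged from −0.039 to 0.065 with 1 sample left out. Against heads, leaving out 1 sample gave 3 to 5 lower and 1 to 3 higher.

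For the stock difference of controls, total counts gave 2 lower and 3 higher genes, with Mdh1 at −0.13 and Argk at −0.31, and leaving out 1 sample gave 0 to 1 lower and 5 to 7 higher. Argk was also below 0 with upper quartile scaling (−0.097), DESeq2 size factors (−0.055) and DESeq2 (−0.055), and ranged from −0.058 to 0.13 with 1 sample left out. For heads less thoraces, leaving out 1 sample gave 6 lower and 1 to 2 higher, and the higher count was 1 with upper quartile scaling, DESeq2 size factors, no filter, DESeq2 and without head controls 1 and 2. Mdh1 turned there to −0.041, −0.093, −0.074 and −0.093 under the first 4 of these, and ranged from −0.12 to 0.11 with 1 sample left out.

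With 1 sample left out, the log2 difference in partner ratio ranged from −0.036 to 0.11 for slgA to P5CDh1 and from −0.033 to 0.022 for Mdh1 to Mdh2 in w1118, and from −0.031 to 0.15 for Gpdh to Gpo-1 in heads.

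Total counts moved the median of all genes from 0.010 to 0.18 in Act88F-GS-Gal4 thoraces, and to −0.35 for the stock difference, which shifts every gene alike. Over all genes, 2112 were lower and 1332 higher in Act88F-GS-Gal4 thoraces, against 1264 and 2631 on total counts and 877 higher with the block. In heads 83 were lower and 533 higher, against 19 and 149 with the block, 27 and 223 with no filter, 53 and 310 at a mean of 10 counts, 870 and 1032 with DESeq2, and 2676 lower with all 18 samples. For the response against w1118, 1545 lower and 559 higher became 851 and 1353 on total counts, and DESeq2 gave 1264 higher. Against heads, 1405 lower and 2311 higher became 2132 lower with DESeq2 size factors and 2470 with DESeq2, and 1473, 773 and 1396 higher with no filter, limma and the block. Between control stocks 4038 higher became 1817 on total counts, and between control tissues 6503 higher became 3913 with limma. The causes of these changes were not tested. The biological coefficient of variation was 18.3% to 44.0% over the fits, and no limit of detection was computed.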
